A study of Mus musculus with 19 samples.

Results

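The 10 genes described here are messenger RNAs encoded by the mitochondrial genome: mt-Nd1, mt-Nd2, mt-Nd4, mt-Nd5, mt-Nd6, mt-Co1, mt-Co2, mt-Co3, mt-Atp6 and mt-Cytb. They were chosen by a listed set of gene names and by having many more reads in PDPN+ than in EpCAM+ libraries, so the difference between these populations is a description and gets no test for them. They are 10 of the 51707 genes summed from the deposited transcript tables, and 10 of the 37 genes of the mitochondrial genome. The other 27 are 3 short messenger RNAs, 2 ribosomal RNAs and 22 transfer RNAs.

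RNA was sequenced from cells flow-sorted out of pancreatic ductal adenocarcinomas of C57BL/6J mice. All tumours grew from PDAC T-LOH KPC organoids, cultured mouse pancreatic tumour cells placed into the pancreas (orthotopic transplantation), and the mice then received neratinib, an irreversible inhibitor of ERBB family receptor tyrosine kinases, or vehicle for 2 weeks. Cells positive for podoplanin (PDPN+), called cancer-associated fibroblasts in the labels, gave 4 neratinib and 4 vehicle libraries. Cells positive for the epithelial adhesion molecule EpCAM (EpCAM+), called epithelial cells, gave 5 neratinib and 6 vehicle libraries. Libraries are named N (neratinib) or V (vehicle) with the number in their label, which was read as the mouse. The labels do not state this. There are 11 such numbers, and 8 have a library of each population. The p-values rest on the libraries of a group coming from separate mice.

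The mitochondrial genome is a small circle of DNA that is transcribed from both strands into long precursors, from which transfer RNAs, ribosomal RNAs and messenger RNAs are cut. Its messenger RNAs encode core subunits of complexes I, III and IV of the respiratory chain and of ATP synthase, while the other subunits of these complexes and all factors that copy and transcribe the genome are encoded in the nucleus. All members except mt-Nd6 are transcribed as part of the heavy-strand precursor, and mt-Nd6 is the messenger RNA of the light strand. In human cells most of these messenger RNAs carry short poly(A) tails, which also complete stop codons that the genome leaves unfinished, and MT-ND6 lacks such a tail.

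The ends of 5 coding sequences, all on chromosome M, show 2 features that bear on counting. Sequences are those of GENCODE M21 transcripts (build GRCm38), whose lengths, 519 to 1824 bases, equal those in the deposited tables for all members. No coordinates are given, since the submitters used GRCm39. In the last 24 bases of mt-Nd5 and mt-Nd6, capitals mark 14 bases that the genes share on opposite strands, so that reads across this end belong to either gene where strand is not used.
mt-Nd5: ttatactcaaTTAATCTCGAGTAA
mt-Nd6: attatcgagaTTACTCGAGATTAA
In the last 20 bases of 3 members the capital marks an unfinished stop codon, a lone T; the other 7 members end in a complete stop codon.
mt-Nd4: aattacaggcctgacaataT
mt-Co3: catttattgatgaggatctT
mt-Cytb: aatactaaaattatatccaT
The light-strand member also stood apart in base composition. mt-Nd6 holds 28.1% G, 43.7% T and 5.97% C, whereas the 9 heavy-strand members hold 8.00 to 16.1% G, 27.4 to 31.2% T and 23.8 to 27.7% C.

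Copies of mitochondrial DNA in the nuclear genome can take reads of these genes. At 95% identity or more over at least 100 bases, 11 annotated nuclear copies were found, 9 of them copies of 7 members. The pseudogene Gm29216 on chromosome 1 matches the last 483 bases of mt-Co1 with 1 mismatch, A1066T (mt-Co1 base first, positions counted from 1 at its first base), shown in capitals in the sequences around it.
mt-Co1: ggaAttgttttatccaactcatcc
Gm29216: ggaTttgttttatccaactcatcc
Of the reads assigned to mt-Co1 and Gm29216 together, Gm29216 took 21.8 to 28.8% in PDPN+ libraries and 25.5 to 29.3% in EpCAM+ libraries. The values of mt-Co1 are therefore uncertain. If all those reads came from mt-Co1, its count would rise by more than that share, which is taken of the pair. Gm28437, identical to mt-Co3 over its length, took 1.14 to 7.77% of the reads of that pair in PDPN+ libraries and 0.440 to 4.57% in EpCAM+ libraries. The other 7 copies of members took at most 0.114% of the reads of their pair in any library.

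Transcript reads per library numbered 3.33e+07 to 7.69e+07. Genes with at least 10 reads numbered 11924 to 18602 in PDPN+ libraries and 16542 to 17984 in EpCAM+ libraries. Some libraries stood apart before any comparison of the members. On the first principal component of PDPN+ libraries, V53175 and V53188 lay at 210.1 and 180.2 and the other 6 at -86.3 to -43.8, and these 2 libraries also had the fewest genes, 12102 and 11924. On that of EpCAM+ libraries, N53178, V53175 and V53176 lay at 85.5, 94.4 and 93.0 and the other 8 at -49.2 to -18.4. Against the labelled cell types, 8 fibroblast markers, including Pdpn, Col1a1 and Pdgfra, summed to 6475 to 10124 TPM (Salmon's transcript abundance, a level per length) in PDPN+ libraries and 10.2 to 106 TPM in EpCAM+ libraries. The 7 epithelial markers, including Epcam and Krt8, summed to 286 to 1203 TPM in PDPN+ libraries and 15899 to 23319 TPM in EpCAM+ libraries. Mesothelial cells also carry podoplanin, and 3 of their 4 markers were called higher in PDPN+ cells by edgeR. Upk3b averaged 179 ± 104 and 227 ± 110 TPM in PDPN+ neratinib and vehicle libraries (SD, n = 4 each), against 1.41 ± 0.404 (n = 5) and 2.07 ± 2.08 TPM (n = 6) in EpCAM+ neratinib and vehicle libraries. Wt1 averaged 74.5 and 72.7 TPM in the PDPN+ groups, against 0.171 and 0.215 TPM in the EpCAM+ groups, and Lrrn4 was the other marker called higher. The fourth marker, Msln, went the other way, with a log2 difference (PDPN+ over EpCAM+) of -0.62 in edgeR, not called. On the log2(TPM + 1) scale its difference was -1.34 (limma adjusted p = 0.000115). The 4 markers summed to means of 578 and 688 TPM in PDPN+ neratinib and vehicle libraries, against 691 and 771 TPM in EpCAM+ neratinib and vehicle libraries. The PDPN+ libraries thus held RNA of 3 mesothelial markers beside fibroblast marker RNA, and its part in the results was not tested.

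The members took a far larger part of the reads in PDPN+ than in EpCAM+ cells. In PDPN+ neratinib libraries they held 14.2% (N53178), 10.6% (N53180), 13.3% (N53184) and 9.94% (N53194) of transcript reads. In PDPN+ vehicle libraries they held 8.02% (V53175), 6.35% (V53179), 4.76% (V53185) and 13.2% (V53188). All 5 EpCAM+ neratinib libraries lay between 1.51 and 1.78%, and the 6 EpCAM+ vehicle libraries had a lowest share of 1.37%, a median of 1.52% and a highest share of 2.17%. Every PDPN+ library was above every EpCAM+ library. Within PDPN+ cells, V53188 lay among the neratinib libraries, while the other 3 vehicle libraries lay below all 4 of them. The group means were 12.0 ± 2.05% in PDPN+ neratinib and 8.09 ± 3.68% in PDPN+ vehicle libraries (SD, n = 4 each), against 1.64 ± 0.129% in EpCAM+ neratinib (n = 5) and 1.67 ± 0.315% in EpCAM+ vehicle libraries (n = 6). Without the libraries that stood apart, a choice made after seeing the data, the mean was 5.55% in PDPN+ vehicle cells, from V53179 and V53185 only. It was then 1.61% in EpCAM+ neratinib cells and 1.47% in EpCAM+ vehicle cells. A share is relative to all other RNA of the library, so more mitochondrial RNA and less other RNA per cell cannot be told apart, nor can fewer cells of a type and less RNA per cell in such bulk samples.

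**Figure D1:**
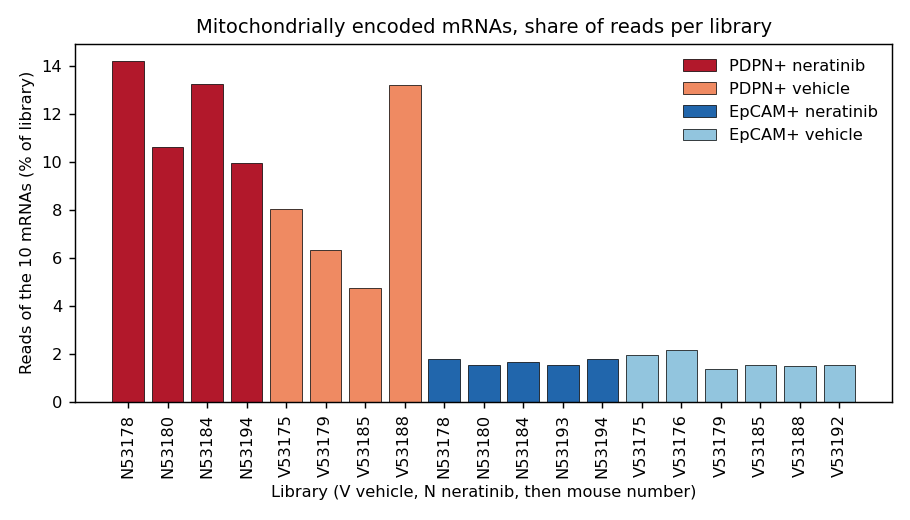
Share of transcript reads held by the 10 mitochondrially encoded mRNAs (y axis, percent) in each of the 19 libraries (x axis), with 1 bar per library coloured by group. PDPN+ libraries range from 4.76 to 14.2% and EpCAM+ libraries from 1.37 to 2.17%.

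Paired by mouse number, the PDPN+ share exceeded the EpCAM+ share in all 8 mice. The ratio was 8.08, 7.07, 8.11 and 5.58 in the neratinib mice N53178, N53180, N53184 and N53194, against 4.12, 4.62, 3.10 and 8.93 in the vehicle mice V53175, V53179, V53185 and V53188. The highest ratio of all thus belonged to a vehicle mouse, V53188, and the neratinib and vehicle ratios overlapped. Their means were 7.21 ± 1.19 with neratinib and 5.19 ± 2.57 with vehicle (SD, n = 4 each). In the PDPN+ libraries with the highest shares of all, N53178, N53184 and V53188, the summed epithelial markers stood at 286, 987 and 309 TPM, against 773 to 1203 TPM in the other 5 PDPN+ libraries. The same 3 libraries had the lowest summed level of 12 genes of the dissociation stress response, at 4895, 5493 and 6286 TPM, against 7315 to 9592 TPM in the other 5, with 9539 TPM in V53185, the library with the lowest share. TPM has a fixed total per library, so a higher level of the members leaves less of it for other genes, and these sums are not independent of the shares. The part of epithelial RNA or of dissociation stress in the shares was not tested.

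Levels of each member are given as TPM, in the order N53178, N53180, N53184 and N53194 and then V53175, V53179, V53185 and V53188 for PDPN+ cells, and N53178, N53180, N53184, N53193 and N53194 for EpCAM+ neratinib cells. Complex I, NADH dehydrogenase, is the entry point of electrons from NADH, and 5 members encode parts of its membrane arm. The most abundant of them, mt-Nd1, stood at 14656, 11270.1, 13021 and 10902 TPM in PDPN+ neratinib libraries, against 8469, 6521, 4599 and 12189 TPM in PDPN+ vehicle libraries. In EpCAM+ cells mt-Nd1 stood at 1691, 1580.0, 1681, 1489 and 1990.1 TPM in neratinib libraries, and at 1223, 1552 and 2202 TPM in the lowest, median and highest vehicle libraries. Both PDPN+ groups lay wholly above both EpCAM+ groups for mt-Nd1, and 2 of the 4 PDPN+ neratinib libraries exceeded every PDPN+ vehicle library. PDPN+ levels of mt-Nd4 were 7703, 6674, 6793 and 6087 TPM with neratinib, against 4655, 3214, 2590.2 and 7584 TPM with vehicle. EpCAM+ levels of mt-Nd4 were 773, 948, 998, 975 and 1311 TPM with neratinib, and 719.5, 927 and 1111 TPM in the lowest, median and highest vehicle libraries. Again the populations did not overlap, and V53188 lay among the PDPN+ neratinib libraries.

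Less abundant were mt-Nd2, mt-Nd5 and mt-Nd6. PDPN+ libraries had 3282, 2118, 2246 and 2708 TPM of mt-Nd2 with neratinib, against 2107, 1156, 1158 and 3189 TPM with vehicle. EpCAM+ libraries had 359, 298, 309.5, 317 and 444 TPM of mt-Nd2 with neratinib, and a lowest, median and highest level of 281, 345 and 566 TPM with vehicle. For mt-Nd2 only V53188 among the PDPN+ vehicle libraries lay within the neratinib range, and V53175, just below the lowest neratinib library, and the other 2 lay under it. For mt-Nd5, whose product lies at the far end of the membrane arm, PDPN+ libraries had 2135, 1832, 1892 and 2134 TPM with neratinib, against 1465, 1045, 847 and 2339 TPM with vehicle. EpCAM+ libraries had 238, 205, 222, 221 and 282 TPM of mt-Nd5 with neratinib, and 185, 231 and 325 TPM in the lowest, median and highest vehicle libraries. V53188 held the highest mt-Nd5 level of all libraries. The light-strand transcript mt-Nd6 had 2397, 1734, 2036 and 2373 TPM in PDPN+ neratinib libraries, against 1471, 1043, 992 and 2589.8 TPM in PDPN+ vehicle libraries. In EpCAM+ cells mt-Nd6 had 254, 279, 299, 317 and 366 TPM with neratinib, and 264, 275 and 357 TPM in the lowest, median and highest vehicle libraries. It showed the same order of libraries at the top and bottom of the PDPN+ group as mt-Nd5, with V53188 highest and V53185 lowest.

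Complex III, which passes electrons from ubiquinol to cytochrome c, has a single mitochondrially encoded subunit, cytochrome b. Its messenger, mt-Cytb, stood at 42102, 33503, 36072 and 30698 TPM in PDPN+ neratinib libraries, against 24101, 21690.3, 15750.4 and 42048 TPM in PDPN+ vehicle libraries. EpCAM+ libraries held 5993, 5108, 5331, 5323 and 6634 TPM of mt-Cytb with neratinib, and 3972, 5079 and 6733 TPM in the lowest, median and highest vehicle libraries. N53178 and V53188 were thus nearly equal for mt-Cytb and above all other libraries.

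Complex IV, cytochrome c oxidase, reduces oxygen, and its catalytic core is encoded by mt-Co1, mt-Co2 and mt-Co3. For mt-Co1, which encodes the subunit that holds the oxygen-reducing site, PDPN+ levels were 14393, 12436, 13518 and 10953 TPM with neratinib, against 9077, 7891, 5523 and 14470.1 TPM with vehicle. EpCAM+ levels of mt-Co1 were 2667, 2357, 2332, 2225 and 2572 TPM with neratinib, and 1989.8, 2354 and 3469 TPM in the lowest, median and highest vehicle libraries. No PDPN+ neratinib library exceeded V53188 for mt-Co1, and all 4 exceeded the other 3 vehicle libraries. For mt-Co2, whose product takes electrons from cytochrome c, PDPN+ levels were 24651, 20678, 25199 and 17878 TPM with neratinib, against 12919.8, 11793, 9191 and 19912 TPM with vehicle. EpCAM+ levels of mt-Co2 were 3564, 3652, 4093, 3563 and 4242 TPM with neratinib, and 3297, 3792 and 4384 TPM in the lowest, median and highest vehicle libraries. Here 3 of the 4 PDPN+ neratinib libraries lay above every vehicle library, and N53194 lay below V53188. The third subunit gene, mt-Co3, had 24154, 20601, 22913 and 16307 TPM in PDPN+ neratinib libraries, against 12857, 11139, 9147 and 19963 TPM in PDPN+ vehicle libraries. EpCAM+ levels of mt-Co3 were 3298, 5177, 5591, 5419 and 5704 TPM with neratinib, and 4246, 5049.7 and 5639 TPM in the lowest, median and highest vehicle libraries. N53178 was the lowest EpCAM+ library for mt-Co3 and the highest PDPN+ library.

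ATP synthase uses the proton gradient to make ATP, and mt-Atp6 encodes the subunit that forms its proton path. By TPM mt-Atp6 was the most abundant member in every group, at 57111, 48897, 53282 and 45941 TPM in PDPN+ neratinib libraries, against 35637, 31891, 23226 and 55555 TPM in PDPN+ vehicle libraries. EpCAM+ levels of mt-Atp6 were 10293, 9557, 9709, 9047 and 10942 TPM with neratinib, and 8006, 9001 and 12411 TPM in the lowest, median and highest vehicle libraries. Since mt-Atp8 and mt-Atp6 overlap by 43 bases on the same strand, part of their reads can be assigned to either.

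For 10 of 10 members the lowest PDPN+ library lay above the highest EpCAM+ library. In this comparison 49.3% of all genes were called by edgeR at an adjusted p under 0.05, 24.3% higher and 25.0% lower in PDPN+ cells, and nothing is read from the members' count, since this contrast chose them.

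**Figure D2:**
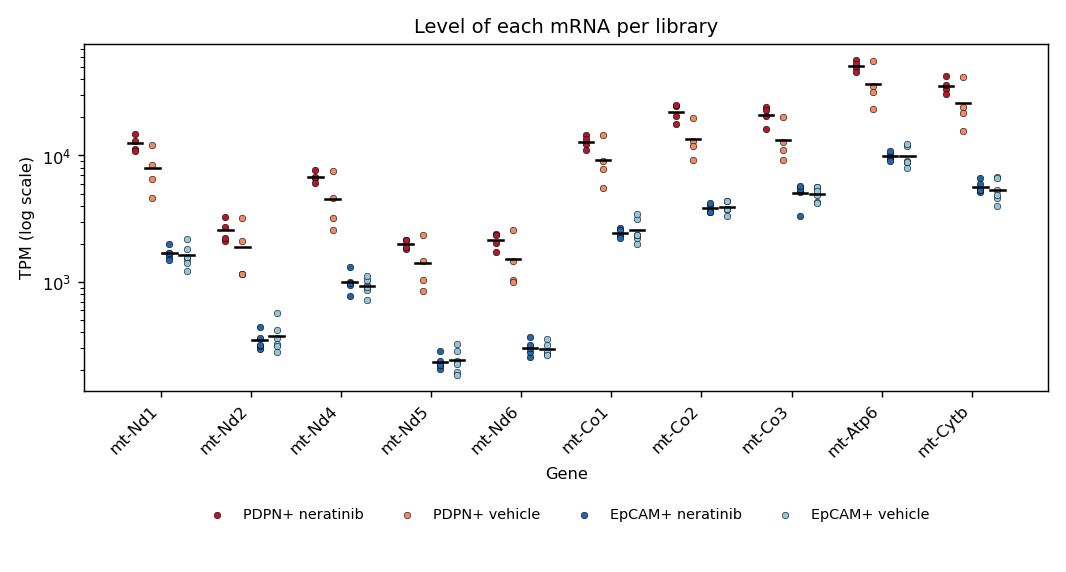
Level of each mRNA in TPM (y axis, log scale) for every library (points) with the group mean (bars), in 4 groups per gene (x axis). For all 10 genes the lowest PDPN+ library lies above the highest EpCAM+ library, by 1.59 times for mt-Co1 to 2.71 times for mt-Nd6.

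Across populations, the ratio of the mean PDPN+ to the mean EpCAM+ TPM was 7.18 for mt-Nd5, 6.19 for mt-Nd2, 6.16 for mt-Nd1, 6.14 for mt-Nd6 and 5.88 for mt-Nd4. It was 5.59 for mt-Cytb, 4.60 for mt-Co2, 4.45 for mt-Atp6, 4.38 for mt-Co1 and 3.42 for mt-Co3. Among the members, the complex I genes thus had the highest ratios and mt-Co3 the lowest. Outside the members, the complex I gene mt-Nd3 had a lower ratio, 4.45, than mt-Cytb. In the fit of read counts by edgeR, the log2 differences of the members (PDPN+ over EpCAM+) ranged from 2.34 for mt-Co3 to 3.43 for mt-Nd5 with a median of 3.11, while the median of all 19626 genes was -0.13. On the log2(TPM + 1) scale the median of all genes was -0.63 and the members' differences were 1.72 for mt-Co3 to 2.78 for mt-Nd5.

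The other genes of the mitochondrial genome differed in how far they followed. The short messengers mt-Nd3, mt-Nd4l and mt-Atp8 had mean TPM ratios of 4.45, 7.63 and 4.46, although Gm10222, a copy identical to 294 bases of mt-Nd4l, took 77.7 to 85.2% of the reads of that pair in PDPN+ libraries and 73.6 to 91.4% in EpCAM+ libraries. The ratio was 2.61 for mt-Rnr2, the large-subunit ribosomal RNA, and 1.05 for mt-Rnr1, the small-subunit ribosomal RNA, whose levels overlapped between populations. The count fit gave log2 differences of 2.03 for mt-Rnr2 and 0.72 for mt-Rnr1, and mt-Rnr1 was not called by edgeR (adjusted p = 0.0967).

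The order of levels is given by group means of TPM, and the order by reads differed. In PDPN+ cells it ran mt-Atp6, mt-Cytb, mt-Co2, mt-Co3, mt-Co1, mt-Nd1, mt-Nd4, mt-Nd2, mt-Nd6 and mt-Nd5 from high to low, with neratinib and with vehicle alike. In EpCAM+ cells the means put mt-Co3 before mt-Co2 and gave otherwise the same order, but mt-Cytb exceeded mt-Co3 in only 2 of 5 neratinib and 2 of 6 vehicle libraries. In PDPN+ neratinib libraries the ranges of mt-Co2 and mt-Co3 overlapped, as did those of mt-Co1 and mt-Nd1, of mt-Nd2 and mt-Nd6, and of mt-Nd6 and mt-Nd5; the other neighbours did not. In PDPN+ vehicle libraries every pair of neighbours overlapped, with all members high in V53188 and low in V53185, although mt-Atp6 exceeded mt-Cytb within each of the 4 libraries. In both EpCAM+ groups mt-Cytb overlapped mt-Co3, mt-Co3 overlapped mt-Co2, mt-Nd2 overlapped mt-Nd6 and mt-Nd6 overlapped mt-Nd5. With vehicle, mt-Co2 also overlapped mt-Co1 and mt-Co1 overlapped mt-Nd1 in EpCAM+ cells.

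The members moved together from one PDPN+ library to the next. V53185 was the lowest PDPN+ library for 9 members, and V53179 for mt-Nd2. The highest PDPN+ library was N53178 for 6 members, V53188 for 3 (mt-Nd5, mt-Nd6 and mt-Co1) and N53184 for mt-Co2. The highest PDPN+ library exceeded the lowest 2.46 times for mt-Atp6 and up to 3.19 times for mt-Nd1. In EpCAM+ libraries the same measure was 1.33 for mt-Co2 and up to 2.02 for mt-Nd2.

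The make-up of the member pool is described by complex. Complex I genes made up 15.4 ± 0.884% of the members' summed TPM in PDPN+ neratinib and 14.7 ± 1.30% in PDPN+ vehicle libraries (SD, n = 4 each). They made up 11.7 ± 0.592% in EpCAM+ neratinib (n = 5) and 11.5 ± 0.753% in EpCAM+ vehicle libraries (n = 6). Every PDPN+ library, at 13.3% or more, was above every EpCAM+ library, at 12.7% or less. Complex IV genes made up 33.0 ± 1.64% in PDPN+ neratinib and 31.4 ± 1.05% in PDPN+ vehicle libraries, against 37.1 ± 2.70% in EpCAM+ neratinib and 38.4 ± 3.27% in EpCAM+ vehicle libraries. Here the populations overlapped. The lowest EpCAM+ neratinib and vehicle libraries stood at 32.7 and 33.95%, and the highest PDPN+ library at 34.8%. The share of mt-Atp6 was 30.5 ± 0.778% and 31.8 ± 0.765% in the PDPN+ neratinib and vehicle groups, and 32.6 ± 1.63% and 32.5 ± 1.82% in the EpCAM+ neratinib and vehicle groups. The light-strand mt-Nd6 made up 1.28 ± 0.242% and 1.29 ± 0.159% in the PDPN+ neratinib and vehicle groups, and 0.993 ± 0.0885% and 0.979 ± 0.106% in the EpCAM+ neratinib and vehicle groups, with overlap between populations.

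**Figure D3:**
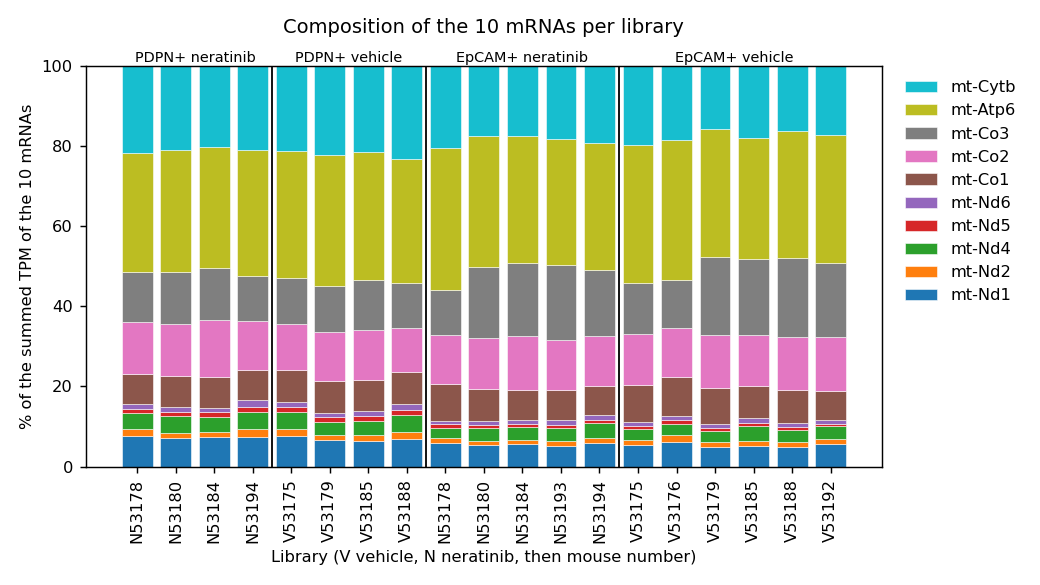
Share of each member in the summed TPM of the 10 mRNAs (y axis, percent, stacked to 100) for every library (x axis), grouped by population and treatment. mt-Co3 takes 16.5 to 19.6% in 8 EpCAM+ libraries and 11.3 to 12.6% in N53178, V53175 and V53176.

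Among EpCAM+ libraries, mt-Co3 split the set. It made up 11.3, 12.6 and 11.9% of the members' TPM in N53178, V53175 and V53176, against 16.5 to 19.6% in the other 8, and 11.1 to 12.9% in PDPN+ libraries. These are the same 3 libraries that stood apart on the first principal component of all genes. They also differed in the ribosomal RNAs: mt-Rnr1 held 16.3, 14.7 and 12.9% of the reads of both ribosomal RNAs in N53178, V53175 and V53176, against 26.8 to 33.3% in the other 8 EpCAM+ libraries and 9.52 to 17.3% in PDPN+ libraries. On both measures the 3 libraries lay within or next to the PDPN+ range. No EpCAM+ library exceeded 106 TPM of the summed fibroblast markers, against 6475 TPM or more in PDPN+ libraries. The split includes both treatments and is not tested here, because these libraries were singled out after their values were seen.

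**Figure D4:**
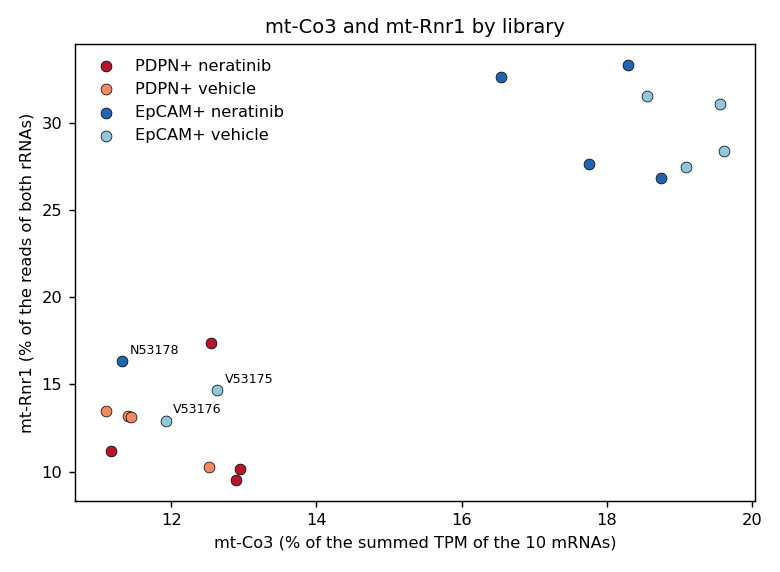
mt-Co3 as percent of the members' summed TPM (x axis) against mt-Rnr1 as percent of the reads of both mitochondrial ribosomal RNAs (y axis), 1 point per library, coloured by group. The EpCAM+ libraries N53178, V53175 and V53176 lie at 11.3 to 12.6% and 12.9 to 16.3%, beside the PDPN+ libraries and away from the other 8 EpCAM+ libraries.

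Whether neratinib changed the members was tested within each population, a contrast that did not choose them. In PDPN+ cells all 10 had a positive log2 fold change (neratinib over vehicle), from 0.38 for mt-Nd2 to 0.71 for mt-Co2 with a median of 0.46, while the median of all genes was 0.06, and none was called. edgeR's quasi-likelihood test called 0.00% of 14437 genes in this comparison (0 genes, with 331 at an unadjusted p under 0.05, none of them a member), and DESeq2 called 73 genes, no member among them. For mt-Co2 the log2 fold change was 0.71 (SE 0.37, 95% interval -0.11 to 1.53, edgeR adjusted p = 1.00). For mt-Co3 it was 0.65 (95% interval -0.18 to 1.48) and for mt-Nd1 0.62 (95% interval -0.27 to 1.50). The intervals of all members included 0 and reached 1.29 to 1.53, so effects up to these sizes lie within the error of 4 libraries a group. The members moved together between PDPN+ libraries, so their signs are not independent of each other. The PDPN+ values also moved with single vehicle libraries. Without V53188 the members' log2 fold changes were 0.87 to 1.09, and without V53185 they were 0.13 to 0.48, with medians of 0.94 and 0.21. Without both libraries that stood apart, V53175 and V53188, they were 1.16 to 1.50, and none was called. This choice was made after seeing the data and left only V53179 and V53185, the vehicle libraries with the lowest shares. Beside these values, the 6 summed macrophage markers stood at 443 TPM in N53184 and at 57.1 to 66.6 TPM in the other 3 PDPN+ neratinib libraries, against 27.3 to 106 TPM in PDPN+ vehicle libraries. The dissociation stress genes summed to 4895 to 9592 TPM with neratinib and 6286 to 9539 TPM with vehicle, and the epithelial markers 286 to 1159 TPM with neratinib and 309 to 1203 TPM with vehicle. The vehicle libraries V53179 and V53185 also had the most transcript reads of PDPN+ libraries, 4.80e+07 and 5.14e+07. They had the most genes with at least 10 reads too, 16150 and 18602, while V53188 had the fewest, 11924. This order did not hold throughout: V53175 had 12102 genes with a share of 8.02%, and N53184 had 4.42e+07 reads with a share of 13.3%. The part of these sums, of read depth and of gene number in the result was not tested.

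In EpCAM+ cells the members lay close to 0. Their log2 fold changes ranged from -0.18 for mt-Nd2 to 0.05 for mt-Nd4 with a median of -0.04, 3 of them positive and 7 negative, and the median of all genes was 0.00. edgeR called 0.00% of 17200 genes (0 genes, with 524 at an unadjusted p under 0.05, no member among them, and 15 called by DESeq2). The members' 95% intervals lay between -0.61 and 0.37. Beside these values, the 5 summed acinar markers stood at 14.1 to 50.1 TPM in EpCAM+ neratinib libraries and 13.3 to 1124 TPM in EpCAM+ vehicle libraries. The macrophage markers summed to 37.5 to 78.4 TPM with neratinib and 32.9 to 53.0 TPM with vehicle. No acinar or macrophage marker was called by edgeR. The part of acinar or macrophage RNA in the EpCAM+ result was not tested.

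**Figure D5:**
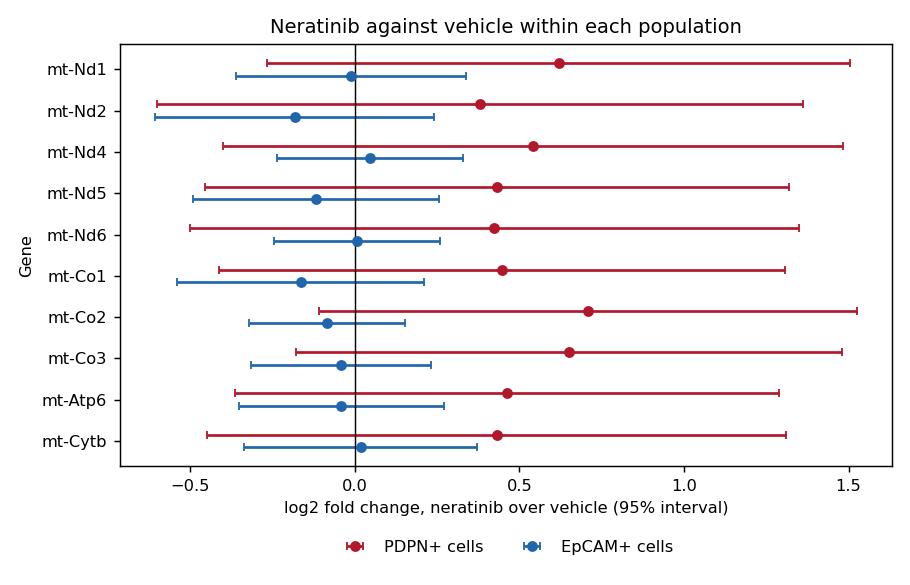
log2 fold change of each mRNA, neratinib over vehicle (x axis), by gene (y axis) in PDPN+ and EpCAM+ cells; points are edgeR estimates and bars 95% intervals. All 10 PDPN+ estimates lie between 0.38 and 0.71 and all EpCAM+ estimates between -0.18 and 0.05, and every interval includes 0.

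Tested directly as an interaction, the difference of the neratinib effects (PDPN+ minus EpCAM+) was positive for all 10 members, from 0.41 for mt-Cytb to 0.79 for mt-Co2 on the log2 scale. No member was called (edgeR adjusted p from 0.387 to 0.838), in a comparison where 0.0662% of 19626 genes were. For mt-Co2 the unadjusted p was 0.0351 and the SE 0.35. Without the PDPN+ library V53188 the interaction of mt-Co2 was 1.19 with an edgeR adjusted p of 0.0429. Over all members and alternatives (edgeR, DESeq2 or limma), the adjusted p of the interaction ranged from 0.0429 to 1.00. The mt-Co2 value without V53188 was the only call of a member in any alternative tried for the neratinib comparisons or the interaction.

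Nuclear genes that serve the mitochondrial genome are read against all genes, of which 24.3% were called higher and 25.0% lower in PDPN+ cells by edgeR. Of 21 genes of mitochondrial DNA maintenance and transcription, 3 were higher and 6 lower, counts from which nothing beyond these shares is read, with a median log2 difference of -0.45 against -0.13 for all genes. Polg, the catalytic subunit of the mitochondrial DNA polymerase, was higher by 1.10 (SE 0.30, adjusted p = 0.00473). Tefm, a transcription elongation factor of mitochondria, was lower, with a log2 difference of -4.22 (SE 1.00, adjusted p = 0.00173), and Tfb1m, which methylates the small ribosomal RNA, with one of -3.19 (SE 0.90, adjusted p = 0.00648). Of 21 genes of mitochondrial RNA processing and stability, 2 were higher and 2 lower, with a median of -0.69. Rexo2, an exonuclease that degrades short RNAs, was higher by 1.12, and Ptcd3, a protein of the mitochondrial ribosome, was lower, with a log2 difference of -0.82. Among 9 tested regulators of mitochondrial biogenesis none was higher and 3 were lower (median -0.90), including the coactivator Ppargc1b at -2.62. Among 9 mitophagy genes none was higher and 3 were lower (median -0.11), including the inner-membrane receptor Phb2 at -2.17. On the log2(TPM + 1) scale limma called 17.7% of all genes higher and 48.1% lower (median -0.63). There 1 gene was higher and 13 were lower of the 21 in the first list (median -0.94), and 1 was higher and 16 were lower of the 21 in the second (median -1.30).

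Nuclear subunits of complexes I and III and of ATP synthase were mixed in edgeR. Of 35 complex I subunits, 12 were higher and 6 lower in PDPN+ cells (median log2 difference 0.02), with Ndufv3 higher at 1.14. Of 9 complex III subunits 3 were higher and 3 lower (median 0.22). Of 10 complex IV subunits none was higher and 4 were lower (median -0.20), Cox8a among them at -0.86. Of 13 ATP synthase subunits 3 were higher and 3 lower (median -0.07), with Atp5e at 1.28 and Atp5b, the catalytic beta subunit, at -1.18. These directions depend on the scaling. On the log2(TPM + 1) scale 4 of the 35 complex I subunits were called higher and 20 lower by limma (median -0.49). Of all genes, 17.7% were called higher and 48.1% lower on that scale. There 4 of the 12 complex I subunits called higher by edgeR had the opposite sign. Of 9 complex III subunits 1 was higher and 5 were lower there. Of 10 complex IV subunits none was higher and 9 were lower, and of 13 ATP synthase subunits 1 was higher and 8 were lower. The medians on this scale were -0.33 for complex III, -0.70 for complex IV and -0.64 for ATP synthase, against -0.63 for all genes.

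With neratinib no gene of these 8 nuclear lists was called by edgeR in either population or in the interaction. In PDPN+ cells, 28 of the 35 complex I subunits had a negative log2 fold change (median -0.27), as did 6 of 9 complex III (median -0.21), 9 of 10 complex IV (median -0.24) and 10 of 13 ATP synthase subunits (median -0.14), against a median of 0.06 for all genes. Of all genes, 52.8% had a positive log2 fold change. The signs of the subunits were not tested as a set, and their dependence on single libraries was not examined.

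Over the 19 libraries, after subtraction of each group's mean, the nuclear genes whose log2 CPM (reads scaled to library size) followed the members' mean most closely among 9532 genes were Eif2b3 (Pearson r 0.87), Urod (0.87), Hprt (0.86), Eif3k (0.85) and Ttc9c (0.85). These values share libraries and scaling with the members and are given as a description.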

How the data were processed

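Per the labels' protocols, RNA of sorted cells was extracted with TRIzol and a micro column kit, a single-cell/low-input kit gave the libraries, with PCR cycles set by RNA amount; cycles per library are not given here. Salmon 1.9.0 and GRCm39/mm39 are named in the submitters' processing notes; transcriptome release, options and strand setting: not given in the sources used here. Per the file headers, the authors deposited Salmon's estimated counts (not normalised) and TPM per transcript. Of 147828 transcripts, 137063 had an identifier in GENCODE M21, giving 51707 genes by summing, and 10765 did not match. The unmatched transcripts held 4.07 to 8.96% of transcript reads in PDPN+ libraries and 1.77 to 2.26% in EpCAM+ libraries. The tests of counts used matched reads only. Sums of estimated counts were rounded to whole reads.

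The test of these counts was edgeR's quasi-likelihood F-test (edgeR 4.0.16 under R 4.3.3, TMM, filterByExpr, robust, Benjamini-Hochberg adjustment over all genes tested, threshold 0.05), within each population and, for the interaction and the population contrast, over all 19 libraries with 4 group means. Shares use all transcript reads as denominator. Near-identical nuclear copies were searched with blastn 2.17.0. The fitting code was tested on simulated data. Alternatives were DESeq2 1.42.0, its size factors, limma 3.58.1 on log2(TPM + 1) at a minimum TPM of 1, no low-count filter, mitochondrial genes left out of library sizes, reads of nuclear copies added, a block for mouse number, and each library left out in turn. Leaving out or marking libraries that stood apart was chosen after seeing the data.

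Named by rule were all members, the other mitochondrially encoded genes, near-identical copies, up to 3 genes per direction that passed in each nuclear list, and the 5 nuclear genes most like the members; not all are printed. The members and the lists were chosen with earlier results of these data known. Of the 195 list entries, 2 were not found by symbol. The p-values measure the spread between libraries.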

Additional observations from a re-analysis of the deposited data

Results flagged for a closer look

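In 5 of 104 sets of values, each over the 4, 5 or 6 libraries of a group, 1 library lay far from the others of its group by Dixon's test at the 95% level; chance gives about 1 in 20. In PDPN+ neratinib cells, N53178 had 6426 TPM of mt-Rnr1, against a group median of 2551 TPM. In PDPN+ vehicle cells, mt-Co1 made up 7.56% of the members' TPM in V53185, against a median of 8.05%. In EpCAM+ neratinib cells, N53178 had 3298 TPM of mt-Co3, against a median of 5419 TPM, and mt-Co2 made up 13.4% of the members' TPM in N53184, against a median of 12.3%. In EpCAM+ vehicle cells, mt-Nd2 made up 1.59% of the members' TPM in V53176, against a median of 1.18%. The cause of these values was not tested.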

How the results depend on the processing

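In PDPN+ cells the members' log2 fold changes with neratinib stayed positive and uncalled in all 160 values from the alternatives tried, 0.13 to 1.50. These values reuse the same libraries, and the members moved together between them, so they are not independent of each other. The count of genes called with neratinib was 0 in edgeR, against 73 with DESeq2 and 111 with all 19 libraries in 1 fit for PDPN+ cells, and 15 with DESeq2 for EpCAM+ cells. The interaction called 13 genes, against 671 with DESeq2, 3 with limma on log2(TPM + 1) and 9 to 131 without single libraries; of PDPN+ libraries left out, V53188 gave 131, V53175 127, N53194 59, N53178 28, V53185 23 and N53184 21. The population contrast called 4761 higher and 4912 lower, against 2771 and 7519 with limma. The same-numbered libraries of both populations did not deviate together (8 pairs, r -0.11 to 0.03); with the replicate block the interaction called 0 genes and the population contrast 7251 (2803 higher, 4448 lower), with a median of all genes of -0.64. No paired analysis was possible within a population because no mouse number occurs in both treatments.

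EpCAM+ values near 0 changed sign. mt-Nd1 (-0.01) was 0.0031 with no filter, 0.068 with limma, 0.011 with all 19 libraries, 0.19 with libraries that stood apart left out and 0.075 with them marked. mt-Atp6 (-0.04) was 0.024 with limma, 0.12 with those left out and 0.039 with them marked. With those left out, mt-Nd2 was 0.045, mt-Nd5 0.10, mt-Co1 0.043 and mt-Co2 0.043. Without single libraries the ranges were -0.077 to 0.12 for mt-Nd1, -0.041 to 0.10 for mt-Nd4, -0.19 to 0.0086 for mt-Nd5, -0.033 to 0.089 for mt-Nd6, -0.094 to 0.058 for mt-Co3, -0.089 to 0.056 for mt-Atp6 and -0.054 to 0.11 for mt-Cytb. The cause was not tested.

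The members' TPM share in PDPN+ neratinib cells was 19% over transcripts of at least 300 bases, against 16.9%. By reads in place of TPM, mt-Nd6 made up 0.621, 0.628, 0.493 and 0.481% of the members in PDPN+ neratinib, PDPN+ vehicle, EpCAM+ neratinib and EpCAM+ vehicle cells. With 4 libraries a group and intervals that reach 1.53, effects up to that size lie within the error in PDPN+ cells.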
